A study of Mus musculus with 12 samples.

Results

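The clustered protocadherins are cell surface adhesion proteins of the cadherin superfamily, and their genes stand in 3 tandem arrays on mouse chromosome 18. Members were taken by symbol from the deposited gene table, as every alpha, beta, gamma A, gamma B and C-type isoform that the table lists. This gave 58 genes of 23253, with 14 in the alpha cluster, 22 in the beta cluster and 22 in the gamma cluster. The alpha cluster held 12 alpha isoforms with the C-type isoforms Pcdhac1 and Pcdhac2. The gamma cluster held 12 gamma A isoforms, 7 gamma B isoforms and the C-type isoforms Pcdhgc3, Pcdhgc4 and Pcdhgc5.

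RNA sequencing had been done on 12 libraries labelled as cortical neurons sorted by flow cytometry, with 3 libraries in each of 4 groups. The adult control group and the P4 group were unlesioned controls. The stroke group was adult mice with a 2 mm cortical lesion made by photothrombosis, in which rose bengal in the blood is activated by light, here for 15 min. The last group carried the same label of adult stroke with siRNA against GDF10, a secreted growth factor of the TGF-beta superfamily. The labels do not define P4, and they describe the mice as adult C57BL/6 in text shared by all samples, so no age was assigned to P4 here. They also do not say whether the replicates were separate animals, so the p-values below measure only the spread between these libraries. Libraries are numbered 1 to 3 in the adult control and siRNA groups and 4 to 6 in the P4 and stroke groups. The labels do not say what these sets of numbers stand for. In comparisons across the sets, the group and the set cannot be told apart.

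In mouse neurons each cell is known to transcribe a small and largely random set of alpha, beta and gamma isoforms, while C-type isoforms are used more uniformly. The isoforms form lattices between membranes only when the same set meets, which gives a neuron a surface identity and lets its own dendrites and axon branches avoid each other. A chosen isoform has its promoter unmethylated and bound by CTCF, and cohesin brings it to a distant enhancer. The alpha and gamma isoforms each splice a variable exon, which codes for the whole outer part of the protein, to constant exons shared by the cluster. The beta isoforms have no constant exons and lack that shared inner part.

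This gene structure limits how far a read can be assigned. On the RefSeq annotation of the GRCm38 assembly (mm10), the alpha genes spanned chr18:36930285-37188897, the beta genes chr18:37264998-37521419 and the gamma genes chr18:37661775-37841873, on the plus strand where the annotation gave one. In the GENCODE annotation a median of 2860 exonic bases of an alpha isoform also belonged to other alpha isoforms, against a median of 2485 bases of its own. Pcdha10 had no exons there and entered both of these medians as 0 bases. A gamma isoform shared a median of 2119 bases. The median beta isoform shared 0 bases and had 3714 of its own. Of all windows of 69 bases, the read length, a median of 56.4% in alpha isoforms and 44.0% in gamma isoforms occurred in another member, and 1.53% in beta isoforms. The deposited counts differed between the isoforms of a cluster in every library. As reads from variable exons also differ, this alone does not show how reads from the constant exons were assigned. How such reads were counted is not given in the sources used here, so levels of single alpha and gamma isoforms are less certain than those of beta isoforms.

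Library totals ran from 10517638 to 48633350 counts, and no 2 libraries of a group agreed within counting noise. The labelled cell type was checked on 10 pan-neuronal genes, of which all 10 were detected in every library. Their share of counts was 0.645% ± 0.0812 for P4, 0.407% ± 0.202 for adult control, 0.163% ± 0.0209 for stroke and 0.207% ± 0.0537 for siRNA (mean ± SD, n = 3 each). All 8 oligodendrocyte markers were also detected in every library, at 5.26% ± 2.94, 5.39% ± 0.491 and 8.30% ± 2.02 of counts in the adult control, stroke and siRNA groups and 0.0178% ± 0.00858 in P4. Counts of Gdf10 itself were 15, 21 and 0 for adult controls, 189, 241 and 33 for P4, 0, 5 and 0 for stroke, and 8, 7 and 1 for the libraries labelled GDF10 siRNA. The siRNA label could not be checked at these counts, and Gdf10 did not pass the test between the last 2 groups (edgeR adjusted p = 0.778). The 45S ribosomal RNA precursor took over 1% of counts in adult control 2, in all 3 stroke libraries and in siRNA library 3, and less in the others.

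All 58 members were detected in the series, and their summed level was a small part of each library. In counts per 1000000 (CPM, scaled with TMM library factors), the sum over members was 564, 867 and 648 in adult control libraries 1 to 3, and 1046, 1119 and 730 in P4 libraries 4 to 6. It was 1039, 865 and 810 in stroke libraries 4 to 6, and 547, 559 and 720 in siRNA libraries 1 to 3. These sums overlapped between P4, stroke and adult control, whereas all 3 stroke libraries were above all 3 siRNA libraries. Gamma isoforms gave the largest part in all libraries but P4 6, with 32.6% to 76.9% of the members' CPM over all 12. The single most abundant member was Pcdhgc3, a C-type isoform that promotes dendrite branching in the mouse cortex, in 8 of the 12 libraries.

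**Figure D1:**
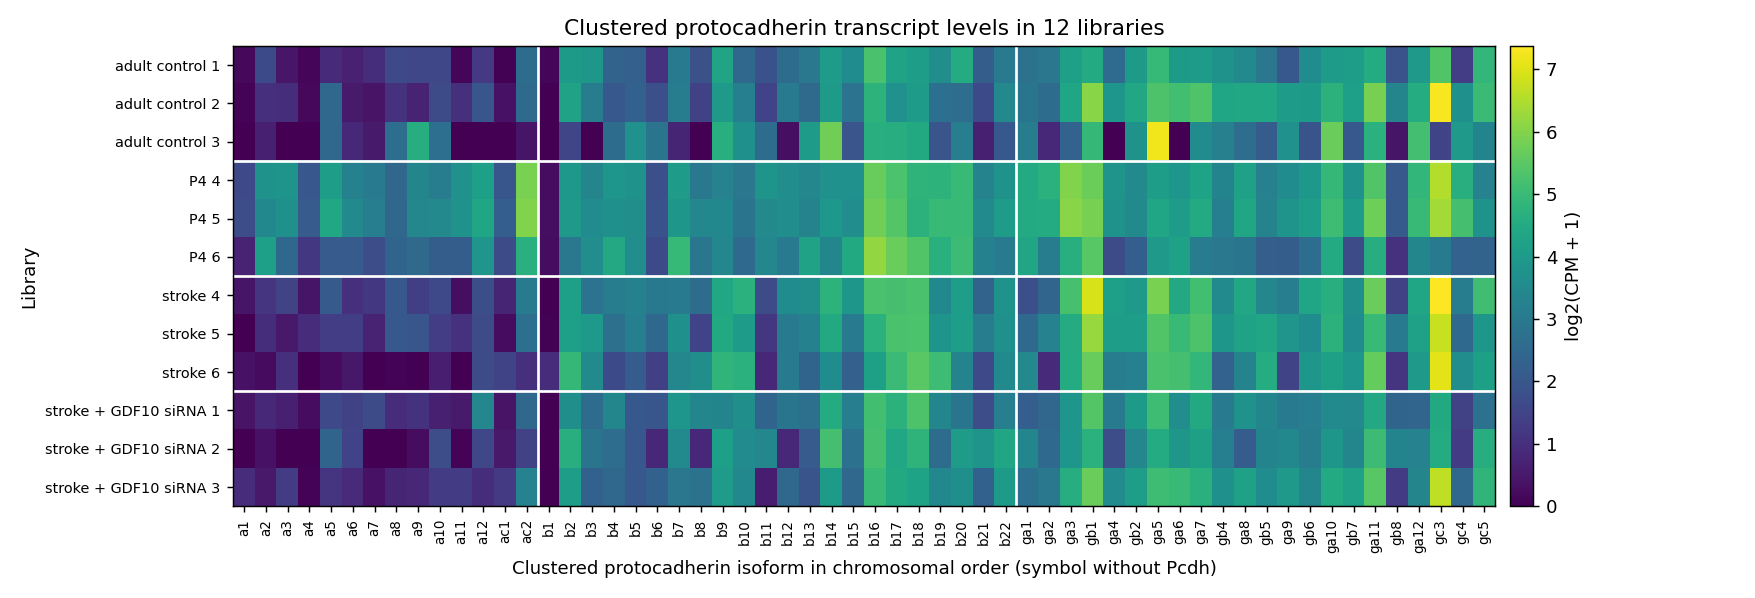
Level of each of the 58 isoforms (columns, in chromosomal order, with white lines between the alpha, beta and gamma clusters) in each of the 12 libraries (rows), as log2(CPM + 1). The left block shows most of the alpha cluster at low levels in the 9 adult libraries and higher in the 3 P4 libraries. Pcdha9 in adult control 3, at 23.4 CPM, is above all P4 libraries. Adult control 3 has 11 isoforms at 0.

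Set on a common scale of CPM per kilobase of exon that an isoform does not share, alpha isoforms had the lowest median of the alpha, beta, gamma A and gamma B subfamilies in all 4 groups, though in P4 it lay close to that of gamma B. The alpha median was 0.245 CPM per kilobase for adult control, 0.392 for stroke, 0.278 for siRNA and 2.93 for P4. It rests on 11 alpha isoforms, as Pcdha10 had no exon length in the GENCODE annotation and was left out. In the same order the medians of beta isoforms were 1.89, 2.68, 1.95 and 3.29, those of gamma A isoforms 5.24, 8.69, 5.21 and 6.20, and those of gamma B isoforms 3.79, 4.70, 3.23 and 2.97 CPM per kilobase. Levels within a subfamily were spread widely, from 1.61 to 28.4 CPM per kilobase among gamma A isoforms in adult control. A gamma or alpha value of this kind is set too high by any reads from constant exons that were counted to the isoform.

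The make-up of the family varied from library to library within a group. The effective number of isoforms, which is the number of equally abundant isoforms that would give the same evenness (the exponential of the Shannon entropy), was 41.7, 42.2 and 36.9 in P4. Adult controls gave 36.9, 28.5 and 21.5, stroke libraries 28.8, 33.7 and 27.8, and siRNA libraries 36.9, 35.3 and 31.9. The P4 libraries were thus at or above the most even adult libraries, with P4 6 level with adult control 1 and siRNA 1. All 58 members had at least 1 count in each P4 library and in adult control 1, and 47 to 57 had in the other adult libraries. At least 10 counts were reached by 57 or 58 members in P4 and by 38 to 56 in the adult libraries. With every library thinned to the smallest total, an expected 57.9 members had at least 1 count in each P4 library, and 47.0 to 56.9 had in the adult libraries.

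Adult control 3, the shallowest library, stood apart from the others. It had 0 counts for 11 members, namely Pcdha1, Pcdha3, Pcdha4, Pcdha11, Pcdha12, Pcdhac1, Pcdhb1, Pcdhb3, Pcdhb8, Pcdhga4 and Pcdhga6, which allows up to 0.342 CPM each (3 counts, counting error only). A single isoform, Pcdhga5, took 22.9% of its member counts (95% Wilson interval 21.8% to 24.0%). Pcdhgc3, with 40.3 and 157 CPM in adult controls 1 and 2, had 1.82 CPM there. Of 57 tested members, 57.9% differed by more than 1 log2 unit from the mean of the other adult controls, against 50.8% of all tested genes. Within groups the correlation of the members' log CPM between 2 libraries ran from 0.507 (adult controls 2 and 3) to 0.984 (P4 4 and 5) over 57 genes. Over all 17909 tested genes it ran from 0.759 to 0.994. The members cover a narrower range of levels than all genes, so these ranges are not directly comparable. Genes are not independent replicates, and each pair shares its group. Across replicates of a group the median biological coefficient of variation was 0.999 for the alpha cluster, 0.564 for beta and 0.572 for gamma, against 0.651 for all tested genes. Each gene's value was estimated over all 4 groups at once. The sets were not matched for level, and most alpha isoforms were at low levels in the adult libraries.

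**Figure D2:**
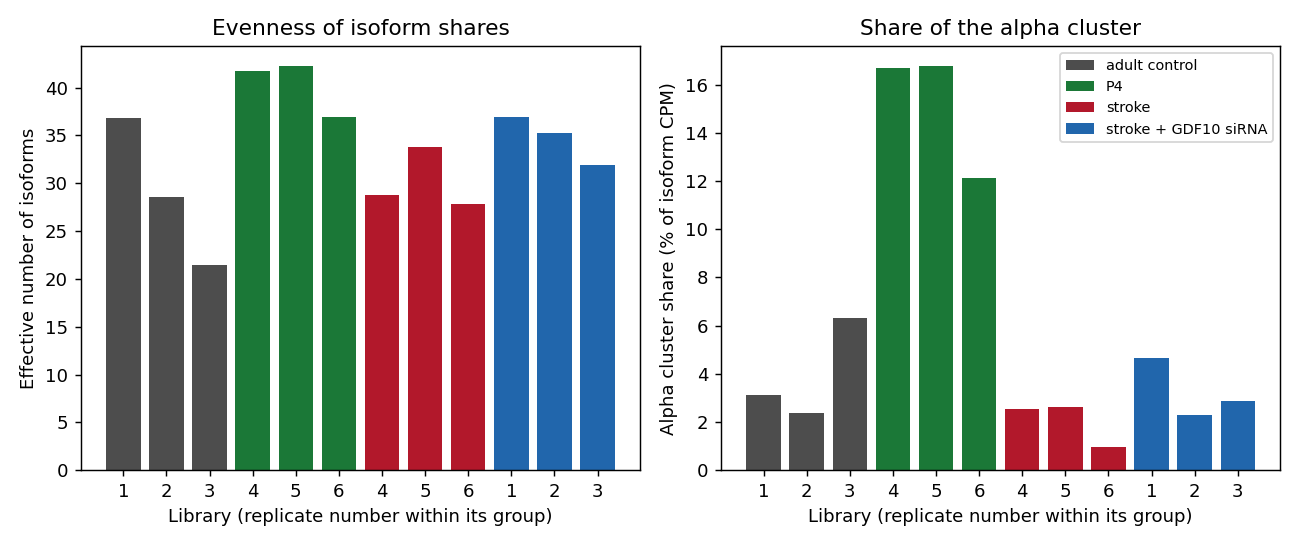
Effective number of isoforms (left) and share of the alpha cluster in the members' CPM in percent (right), with 1 bar per library and colours for groups. P4 libraries reach 36.9 to 42.2 effective isoforms and 12.13% to 16.8% alpha, and the alpha share of the 9 adult libraries lies between 0.945% and 6.33%.

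The comparison of P4 with adult control asked which isoforms differed between the pair of unlesioned groups. The alpha cluster was higher in P4 as a whole. Adult controls summed to 17.7, 20.5 and 41.1 CPM and P4 libraries to 175, 188 and 88.6 CPM, so the groups did not overlap and the means differed 5.69-fold. The alpha share of member counts was 3.14%, 2.36% and 6.33% in adult control and 16.7%, 16.8% and 12.13% in P4, and the 95% Wilson intervals were no wider than 5.73% to 6.996% (adult control 3). The beta cluster was also higher without overlap, with 228, 180 and 223 CPM against 341, 354 and 404 CPM, a 1.74-fold difference of means. The gamma cluster overlapped, with 318, 667 and 385 CPM against 530, 577 and 238 CPM.

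**Figure D3:**
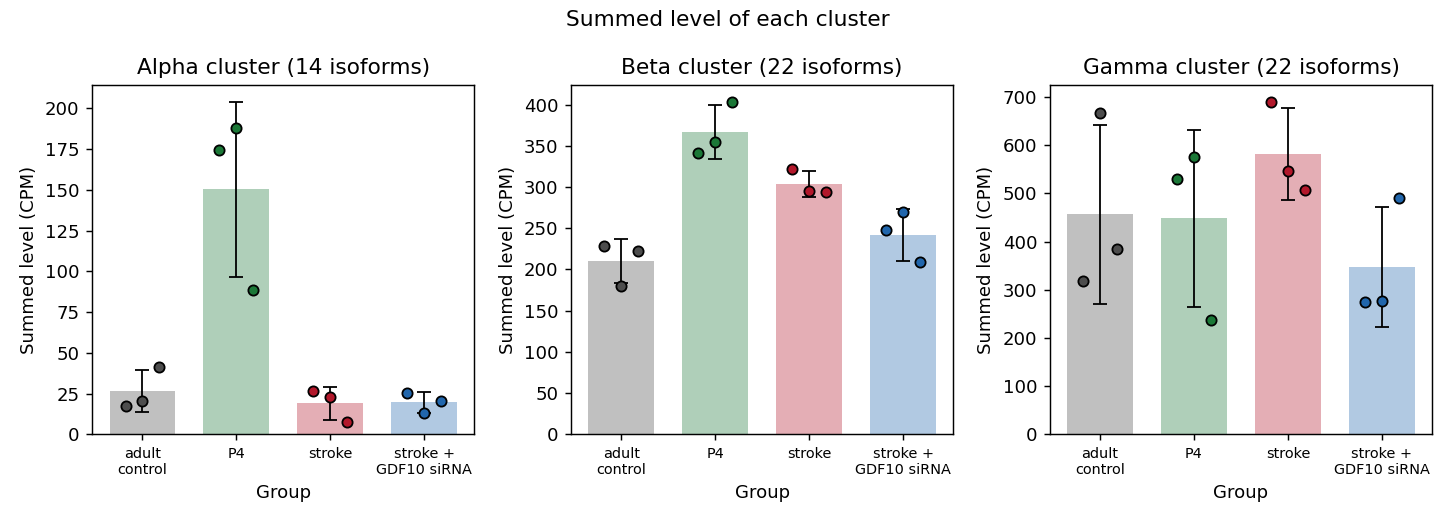
Summed level of the isoforms of each cluster in CPM, with 1 point per library, bars for group means and whiskers for SD (n = 3 per group). All P4 points of the alpha cluster (88.6 to 188 CPM) lie above all adult points (7.66 to 41.1 CPM), while the gamma points of P4 and adult control overlap.

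Gene by gene, edgeR's quasi-likelihood test with Benjamini-Hochberg adjustment over 17909 genes called 7 of 57 tested members higher in P4 and 1 lower. Over all genes 6.32% were called higher and 10.4% lower. By cluster, 4 of 14 alpha, 2 of 21 tested beta and 1 of 22 gamma isoforms rose. The median log2 fold change was 3.54 in the alpha cluster, 1.00 in the beta cluster and −0.12 in the gamma cluster, against −0.16 over all tested genes. Without regard to the test, 26 members had all 3 P4 libraries above all 3 adult controls (10 alpha, 13 beta and 3 gamma), a pattern of 16.1% of tested genes, and 4 had them below, a pattern of 16.0%. The 13 beta members include Pcdhb1, which had too few counts to be tested, at 10, 10 and 3 counts in P4 and 2, 0 and 0 in adult control. No alpha isoform was lower without overlap.

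Pcdhac2, the C-type isoform that serotonergic axons of the mouse need to space their branches, was the alpha cluster's most abundant member. Adult controls had 5.12, 4.82 and 0.342 CPM of it and P4 libraries 58.1, 61.9 and 24.7 CPM. All 3 P4 libraries were above the controls, and the isoform rose 13.8-fold (log2 3.79 ± 0.96 SE, edgeR adjusted p = 0.0129). The other alpha isoforms that rose belong to the randomly chosen kind. Pcdha6 went from 0.595, 0.447 and 0.798 CPM to 8.44, 10.27 and 3.36 CPM (log2 3.59 ± 1.00, edgeR adjusted p = 0.0218). Pcdha12 went from 1.35, 2.93 and 0 CPM to 16.9, 19.1 and 13.4 CPM (log2 3.48 ± 1.12, edgeR adjusted p = 0.0459). Pcdha2 went from 2.14, 1.02 and 0.570 CPM to 12.5, 9.85 and 16.7 CPM (log2 3.37 ± 0.93, edgeR adjusted p = 0.0221). In each of these the groups did not overlap, and P4 6 was the lowest P4 library for Pcdhac2, Pcdha6 and Pcdha12 and the highest for Pcdha2.

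The other 10 alpha cluster members did not pass the test. Of the abundant ones, Pcdha5 had 0.833, 4.57 and 4.68 CPM in adult controls, against 16.4, 20.1 and 3.36 CPM in P4, and Pcdha9 had 1.98, 0.646 and 23.4 CPM against 9.38, 9.69 and 4.82 CPM. Both overlapped between groups. Pcdhac1 had 0.0397, 0.273 and 0 CPM against 2.92, 3.65 and 2.22 CPM, without overlap, and just missed the threshold (edgeR adjusted p = 0.0518). At least 10 counts were reached by 4 to 12 of the 14 alpha cluster members in an adult control library and by all 14 in each P4 library. These numbers depend on library depth. With every library thinned to the smallest total, an expected 12.8, 13.3 and 8 had at least 1 count in adult controls. In each P4 library the expected number was 14.0.

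Among beta isoforms, which are single-exon genes and can be assigned best, Pcdhb17 and Pcdhb19 rose. Pcdhb17 had 17.9, 12.22 and 23.0 CPM in adult controls, against 37.7, 41.0 and 50.5 CPM in P4 (log2 1.28 ± 0.38, edgeR adjusted p = 0.0319). Pcdhb19 had 11.5, 5.42 and 2.85 CPM against 26.4, 30.1 and 24.8 CPM (log2 2.03 ± 0.63, edgeR adjusted p = 0.0368). Both were separated between the groups. Pcdhb16, the most abundant beta isoform, had 36.9, 26.2 and 24.0 CPM against 49.9, 53.5 and 71.2 CPM and did not pass (edgeR adjusted p = 0.0958), nor did Pcdhb18, with 16.5, 15.8 and 21.4 CPM against 26.5, 25.9 and 40.7 CPM.

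The gamma cluster held the one member that fell. Pcdhga5 had 29.7, 38.8 and 148 CPM in adult controls, against 16.4, 19.0 and 15.0 CPM in P4 (log2 −2.10 ± 0.54, edgeR adjusted p = 0.0144). Without adult control 3, whose 148 CPM is far above the others, its log2 difference was −1.02 and it no longer passed (edgeR adjusted p = 0.0837). Pcdhga3 rose, from 17.1, 19.1 and 3.99 CPM to 62.4, 65.5 and 24.0 CPM (log2 1.91 ± 0.58, edgeR adjusted p = 0.0356). The other abundant isoforms of the cluster did not pass the test. Pcdhga11 had 22.3, 57.4 and 25.2 CPM against 40.4, 52.8 and 23.1 CPM, and Pcdhgb1 had 21.5, 66.3 and 28.9 CPM against 51.5, 57.0 and 42.7 CPM. Pcdhgb2 was listed at 15.1, 20.2 and 12.4 CPM against 10.5, 10.5 and 3.61 CPM without overlap, and Pcdhgb7 at 16.7, 17.1 and 3.08 CPM against 12.5, 15.5 and 2.28 CPM, and none of the 7 gamma B isoforms passed.

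The number of members called between P4 and adult control rested on single libraries. It was 8 with all libraries, 1 without P4 4 (Pcdhac2), 2 without P4 5 (Pcdhac2 and Pcdhga5), 4 without P4 6 and 5 without adult control 1. Pcdhac2 passed in each of the 6 fits that left out 1 library. Its log2 estimate in those fits ran from 3.29 to 4.17. With the 45S class of the libraries (over or under 1% of counts) as a term, an alternative chosen after seeing the data, 10 members were called, and Pcdha12 was the 1 of the 8 that no longer passed (edgeR adjusted p = 0.0934). DESeq2 called 19 members higher and 2 lower where it called 28.2% of all genes it tested, and 13 members had a false discovery rate under 0.05 in the authors' deposited table, where 15.4% of all genes did.

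Shares of glial and excitatory neuron markers did not overlap between these groups, whereas pan-neuronal and inhibitory neuron shares did. Excitatory neuron markers took 0.163% to 0.257% of counts in P4 and 0.0478% to 0.102% in adult control. The pan-neuronal share of counts was 0.594%, 0.193% and 0.434% in adult control and 0.569%, 0.637% and 0.731% in P4. Relative to the summed CPM of the 10 pan-neuronal genes, the alpha sum was 0.344%, 1.19% and 0.789% in adult control and 3.37%, 3.23% and 1.09% in P4, so on this scale P4 6 lay inside the adult control range. Oligodendrocyte markers were lower in P4, as given above, and astrocyte markers took 0.0452% ± 0.0123 of counts in P4 and 0.479% ± 0.111 in adult control (mean ± SD, n = 3 each). The part of cell make-up in the difference was not tested, and in such bulk RNA a change in the number of cells that use an isoform and a change in its RNA per cell cannot be told apart.

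**Figure D4:**
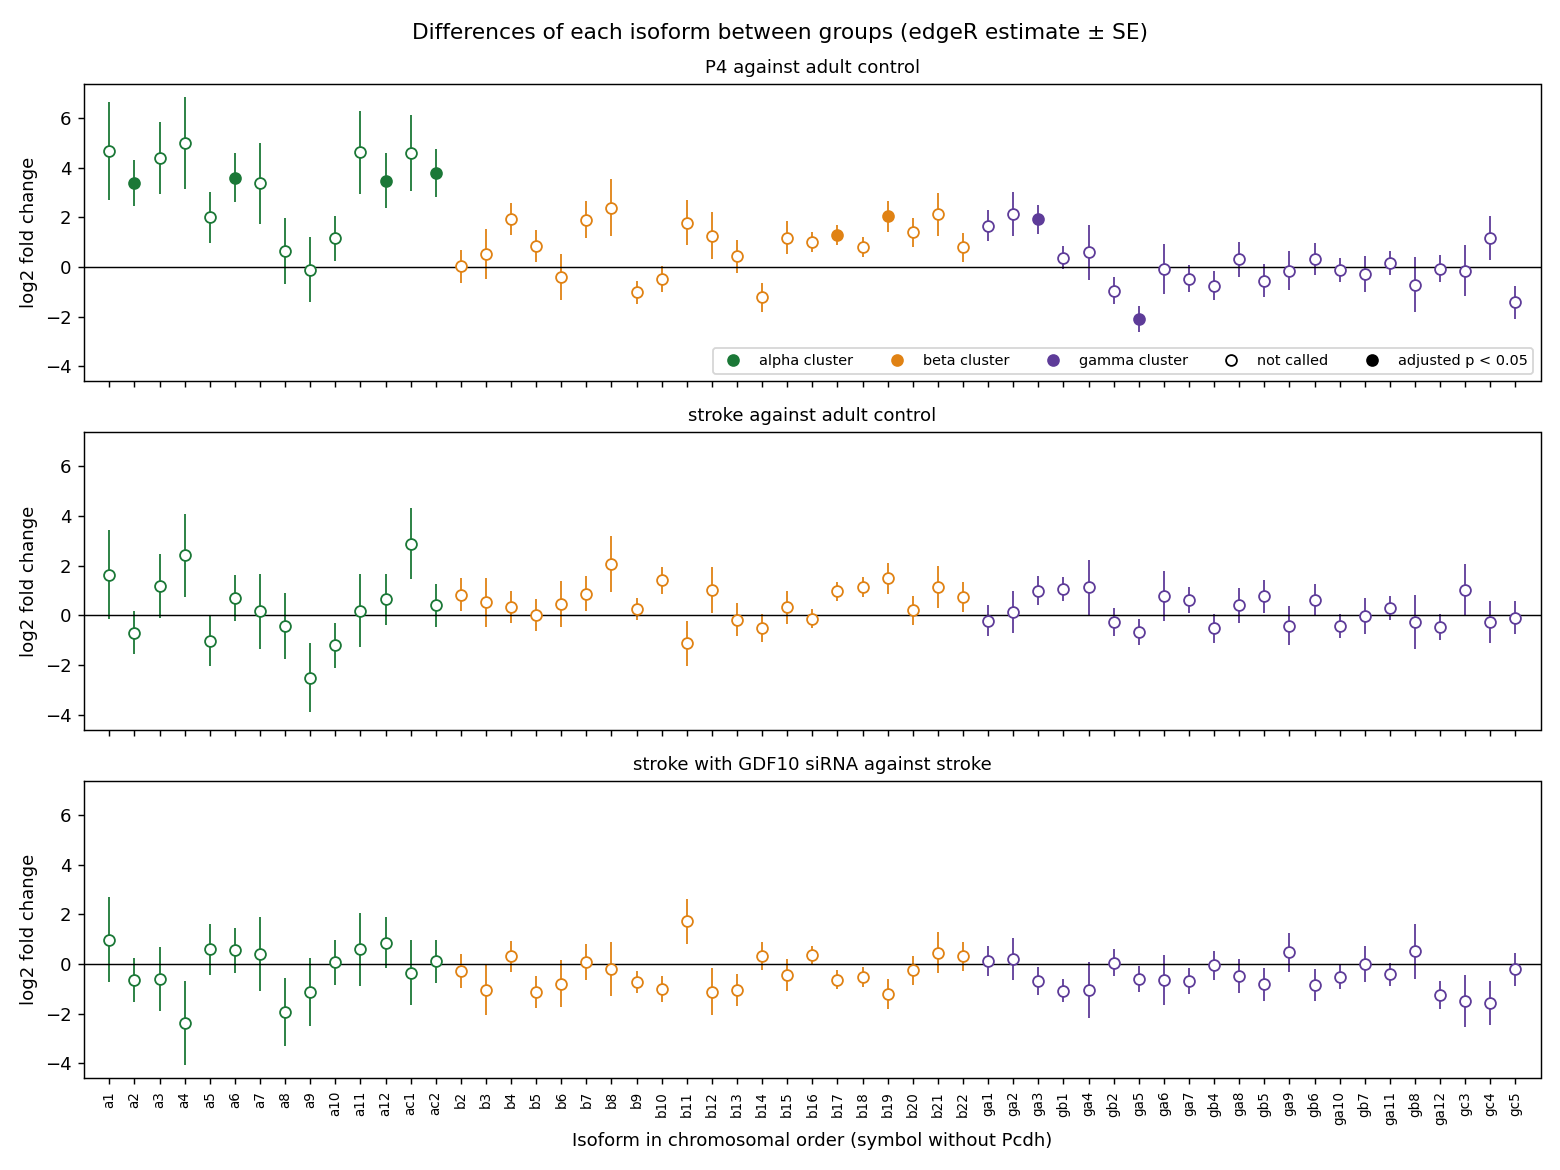
Log2 fold change ± SE of each of the 57 tested isoforms (x axis, chromosomal order) in 3 comparisons, coloured by cluster, with filled points for edgeR adjusted p under 0.05. In the top panel 7 filled points are above 0, 4 of them alpha, and 1 is below; the lower panels hold no filled point.

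Both stroke groups were also set against P4. These comparisons share the P4 libraries with each other and with the one above, so they are no independent check of it. Between stroke and P4, 1 of 57 tested members was called higher and 5 lower, where 10.8% of all genes were called higher and 7.94% lower. All 14 alpha cluster members had every stroke library below every P4 library, a pattern of 21.7% of tested genes, and 3 of them passed. The alpha sum was 26.6, 22.6 and 7.66 CPM in stroke, against 88.6 to 188 CPM in P4. The mean pan-neuronal share of counts was also lower in stroke, at 0.163% against 0.645% in P4. Relative to the summed CPM of those genes, the alpha sum was 1.32%, 1.43% and 0.542% in stroke. P4 libraries had 3.37%, 3.23% and 1.09%, so on this scale the groups overlapped. The part of cell make-up was not tested. Pcdha2 had 1.17, 0.961 and 0.163 CPM in stroke (log2 −4.07 ± 0.97 against P4, edgeR adjusted p = 0.00738). Pcdhac2 had 7.35, 5.51 and 0.977 CPM (log2 −3.38 ± 0.94, edgeR adjusted p = 0.019). Pcdha6 had 1.00, 1.57 and 0.380 CPM (log2 −2.89 ± 0.96, edgeR adjusted p = 0.047).

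The other members that differed between stroke and P4 came from the beta and gamma clusters. Pcdhb11 had 12.95, 10.07 and 9.57 CPM in P4 and 2.28, 1.28 and 0.760 CPM in stroke (log2 −2.91 ± 0.95, edgeR adjusted p = 0.0438). With the 45S class as a term its difference was −0.72 and did not pass (edgeR adjusted p = 0.756). All P4 libraries were under 1% of 45S counts and all stroke libraries over it. The class term was therefore set only by differences inside the adult control and siRNA groups. Pcdhga1 had 21.8, 21.7 and 19.0 CPM in P4 and 2.45, 4.71 and 9.99 CPM in stroke (log2 −1.87 ± 0.62, edgeR adjusted p = 0.0493). Pcdhb10 was the member that was higher in stroke, with 6.59, 6.10 and 4.69 CPM in P4 and 25.2, 15.4 and 24.9 CPM in stroke (log2 1.91 ± 0.53, edgeR adjusted p = 0.0196). None of these 3 overlapped between the groups. The count of 6 fell to 1 without P4 4 or without P4 5, to 2 without stroke 5 or without stroke 6 and to 3 without stroke 4, and Pcdha2 passed in all 6 fits that left out 1 library. With the 45S class as a term 3 members passed, and of the 6 only Pcdhac2 was among them, while Pcdha2 had a log2 difference of −3.63 (edgeR adjusted p = 0.085). DESeq2 called 15 members (28.6% of all genes), and the authors' deposited table called 9 (16.6% of all genes).

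Between the siRNA group and P4, 3 members were called lower and 0 higher, where 8.05% of all genes were called lower and 11.6% higher. At an unadjusted p under 0.05, 18 members were lower and 0 higher, where 13.4% of all genes were lower and 16.7% higher. Of the 14 alpha cluster members 12 had all siRNA libraries below all P4 libraries, a pattern of 18.7% of tested genes. Pcdha2 had 0.804, 0.289 and 0.404 CPM in the siRNA group (log2 −4.70 ± 1.00, edgeR adjusted p = 0.00336), and Pcdhac2 had 4.58, 1.68 and 8.66 CPM (log2 −3.27 ± 0.93, edgeR adjusted p = 0.0216). Both were below every P4 library. Pcdhgc4, the C-type isoform that neurons need to survive in the mouse, had 23.5, 35.6 and 3.99 CPM in P4 and 1.73, 1.51 and 4.62 CPM here (log2 −2.99 ± 0.92, edgeR adjusted p = 0.0329), with an overlap through P4 6. The count of 3 was 1 without P4 4, P4 5, siRNA 1 or siRNA 2 and 5 without P4 6. DESeq2 called 18 members, 0 of them higher (28.5% of all genes), and 10 were called, 0 of them higher, in the authors' deposited table (17.0% of all genes).

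Taking the 9 adult libraries side by side, 16 of the 58 members had all 3 P4 libraries above all of them, a pattern of 9.96% of tested genes. These were 9 of 14 alpha cluster members (Pcdha2, Pcdha3, Pcdha4, Pcdha6, Pcdha7, Pcdha11, Pcdha12, Pcdhac1 and Pcdhac2), 6 of 22 beta members (Pcdhb4, Pcdhb7, Pcdhb11, Pcdhb16, Pcdhb17 and Pcdhb20) and Pcdhga1. In the other direction 1 of the 58 members had all 3 P4 libraries below all 9 adult libraries, a pattern of 1846 of 17909 tested genes. This was Pcdhga5, at 15.0 to 19.0 CPM in P4 and at 22.1 CPM or more in the adult libraries. No gamma B isoform was among the 16.

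The comparison of stroke with adult control asked what the lesion changed in adult cells. No member was called by edgeR, where 0.704% of all genes were called. At an unadjusted p under 0.05, 5 members were higher in stroke and 0 lower, where 15.9% of all genes passed in either direction. DESeq2 called 0 members (7.72% of all genes), and the authors' deposited table called 0 (3.02% of all genes). The median log2 difference was 0.33 over members and −0.08 over all tested genes. All 3 stroke libraries but 1 of the 3 adult controls had over 1% of 45S counts, and with the 45S class as a term the medians were 0.25 and 0.04, so that members minus all genes went from 0.41 to 0.21. The alpha sum was 0.718 of the adult control mean, the beta sum 1.45-fold and the gamma sum 1.27-fold. Of these sums only beta was separated, with 322, 296 and 294 CPM in stroke against 180 to 228 CPM in adult control. Pan-neuronal shares of counts were lower in stroke without overlap, at 0.143% to 0.184% against 0.193% to 0.594%. Relative to the CPM of those genes, the alpha sum was 1.32%, 1.43% and 0.542% in stroke. Adult controls had 0.344%, 1.19% and 0.789%, so the groups overlapped, and the stroke mean was higher. The beta sum stayed separated on this scale, at 16.0% to 20.8% against 4.28% to 10.4%, and gamma overlapped. The part of cell make-up was not tested.

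The members with the smallest p between stroke and adult control were all beta isoforms. Pcdhb18 had 36.9, 38.3 and 43.4 CPM in stroke against 16.5, 15.8 and 21.4 CPM in adult control (log2 1.14 ± 0.41, edgeR adjusted p = 0.202). Pcdhb10 had 25.2, 15.4 and 24.9 CPM against 4.64, 8.15 and 11.98 CPM (log2 1.41 ± 0.53, edgeR adjusted p = 0.222). Pcdhb17 had 35.9, 37.1 and 31.4 CPM against 17.9, 12.22 and 23.0 CPM (log2 0.98 ± 0.38, edgeR adjusted p = 0.238). In all 3 the stroke libraries were above the controls, as in 5 members in all, a pattern of 11.0% of tested genes. Among the abundant gamma isoforms, Pcdhga5 had 58.0, 40.6 and 37.0 CPM in stroke, Pcdhga11 had 50.3, 30.01 and 48.5 CPM, and Pcdhgb1 had 120, 74.8 and 49.7 CPM, and all 3 overlapped with adult control.

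The siRNA group was compared with stroke to ask what the siRNA changed after the lesion. No member was called by edgeR, where 1 gene of 17909, or 0.00558%, was called. At an unadjusted p under 0.05, 2 members were lower and 0 higher, where 7.37% of all genes passed. DESeq2 called 0 members (0.942% of all genes), and the authors' deposited table called 0 (0.159% of all genes). Most members had lower estimates, 36 of 57, with a median of −0.44 against 0.04 over all tested genes. In 12 members, 6 beta and 6 gamma, all siRNA libraries were below all stroke libraries, a pattern of 8.11% of tested genes. No alpha member was separated. The beta sum was 247, 270 and 208 CPM and the gamma sum 274, 276 and 491 CPM, below all stroke libraries in each case. Their means stood at 0.796 and 0.596 of stroke. Relative to the pan-neuronal genes, the beta sum was 9.89%, 16.7% and 9.21%, against 16.0% to 20.8% in stroke, so it overlapped. The gamma sum stayed below stroke on that scale, at 11.0%, 17.0% and 21.7% against 34.4% to 36.0%. Microglia markers took 0.111% to 0.209% of counts in the siRNA group and 0.0251% to 0.0822% in stroke. Oligodendrocyte markers were also higher without overlap, and precursor markers lower. The part of cell make-up was not tested. The alpha sum, 25.6, 12.9 and 20.6 CPM, overlapped with stroke.

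The members with the smallest p here were Pcdhgb1, Pcdhga12 and Pcdhb19. Pcdhgb1 had 41.3, 25.0 and 50.1 CPM in the siRNA group against 120, 74.8 and 49.7 CPM in stroke (log2 −1.07 ± 0.47, edgeR adjusted p = 0.658). Pcdhga12 had 4.27, 8.63 and 9.21 CPM against 19.7, 17.8 and 15.0 CPM, without overlap (log2 −1.25 ± 0.55, edgeR adjusted p = 0.658). Pcdhb19 had 9.41, 5.04 and 9.79 CPM against 9.87, 13.1 and 32.8 CPM, also without overlap. The 45S share differed between the groups, above 1% in all stroke libraries and in siRNA 3 only. With the 45S class as a term the median was −0.14 over members and −0.02 over all genes.

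Against adult control the siRNA group also had 0 members called by edgeR, where 0.117% of all genes were called. At an unadjusted p under 0.05, 3 members were lower and 0 higher, where 8.36% of all genes passed. These were Pcdhga12, Pcdha9 and Pcdhga5. DESeq2 called 1 member, where it called 2.07% of all genes, and the authors' deposited table called 0 (0.839% of all genes). The member called by DESeq2 was Pcdhga12, with 14.9, 22.7 and 35.1 CPM in adult control and 4.27, 8.63 and 9.21 CPM in the siRNA group, without overlap (log2 −1.80, DESeq2 adjusted p = 0.0393; log2 −1.71 ± 0.56, edgeR adjusted p = 0.389). The other pair overlapped with adult control. Pcdha9 had 1.11, 0.174 and 0.780 CPM (log2 −3.63 ± 1.47, edgeR adjusted p = 0.524) and Pcdhga5 had 32.9, 22.1 and 33.1 CPM (log2 −1.30 ± 0.53, edgeR adjusted p = 0.528). The high adult control value of both was that of adult control 3.

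The 5 C-type isoforms did not move together. Pcdhac1 and Pcdhac2 were higher in all P4 libraries than in all adult libraries, though only Pcdhac2 passed. In the adult groups Pcdhac2 stayed between 0.342 and 8.66 CPM. Pcdhgc5, known to bind GABA-A receptors at inhibitory synapses in rodent neurons, leaned the other way, with 28.7, 31.6 and 9.01 CPM in adult controls against 8.67, 12.9 and 4.12 CPM in P4. Stroke libraries held 33.7, 13.9 and 17.2 CPM of it, and siRNA libraries 5.69, 23.3 and 27.1 CPM. It passed in none of the 6 comparisons. Pcdhgc4 had 1.51, 11.9 and 14.8 CPM in adult control and 7.56, 4.77 and 11.2 CPM in stroke, which overlapped.

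Pcdhgc3 was the least settled of them. Adult controls held 40.3, 157 and 1.82 CPM of it and P4 libraries 91.8, 80.8 and 7.42 CPM. Stroke libraries held 165, 107 and 133 CPM, and siRNA libraries 21.3, 22.4 and 101 CPM. It passed in none of the 6 comparisons. All 3 stroke libraries were above all siRNA libraries (log2 −1.49 ± 1.06, edgeR adjusted p = 0.778). Over the 9 adult libraries, whatever their group, Pcdhgc3 was between 101 and 165 CPM in the 5 with over 1% of 45S counts and between 1.82 and 40.3 CPM in the 4 with less. P4 4 and P4 5, with 0.142% and 0.349% of 45S counts, were also under 1% but held more Pcdhgc3 than any of those 4. P4 6, with 0.00984% of 45S counts, held 7.42 CPM. Oligodendrocyte precursor markers split the 9 adult libraries in the same way. They took 0.254% to 0.405% of counts in those 5 and 0.0686% to 0.153% in those 4. The part of the 45S share or of cell make-up in the level of Pcdhgc3 was not tested.

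**Figure D5:**
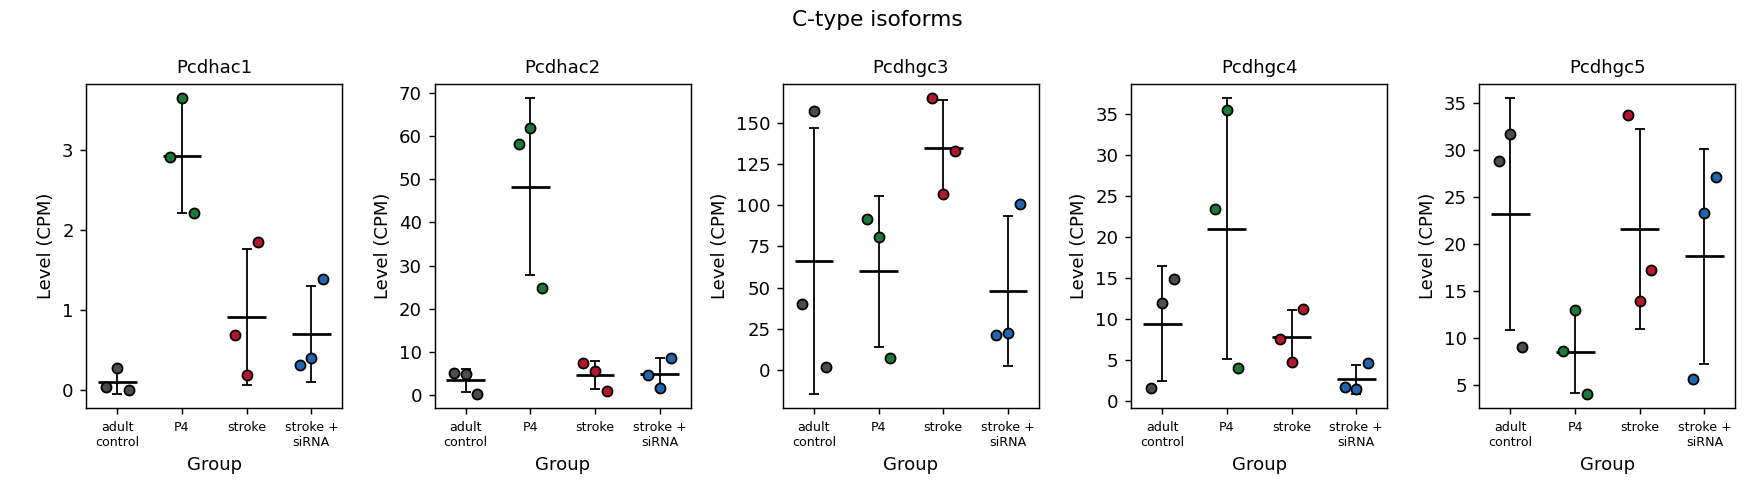
Level of the 5 C-type isoforms in CPM, with 1 point per library, lines for group means and whiskers for SD (n = 3 per group); each panel has its own axis. Pcdhac2 lies at 24.7 to 61.9 CPM in P4 and at most 8.66 CPM in the adult libraries, and Pcdhgc3 spans 1.82 to 157 CPM within adult control alone.

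Genes that act on promoter choice were then read from a list of 22 (1 of them, Wapl, under its older symbol Wapal), covering CTCF, cohesin with its loaders and release factors, DNA methylation and silencing. Ctcf itself was not called in any comparison. Between P4 and adult control 1 rose and 2 fell, which as 13.6% of the list is near the 16.8% called among all genes (6.32% higher and 10.4% lower). Dnmt1, the maintenance DNA methyltransferase, rose from 41.4 ± 19.4 to 108 ± 22.8 CPM (mean ± SD, n = 3; log2 1.38 ± 0.38, edgeR adjusted p = 0.0221). Rest, a repressor of neuronal genes, fell from 36.5 ± 13.9 to 5.96 ± 1.71 CPM (log2 −2.61 ± 0.47, edgeR adjusted p = 0.00126). Stag2, a cohesin subunit, fell from 319 ± 194 to 124 ± 43.7 CPM (log2 −1.36 ± 0.43, edgeR adjusted p = 0.0418). The median over the list was 0.22.

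In the stroke and siRNA groups Rest was again above P4, at 39.0 ± 14.4 and 31.5 ± 5.63 CPM (log2 2.71 ± 0.47, edgeR adjusted p = 0.000753; log2 2.40 ± 0.47, edgeR adjusted p = 0.00173). It was the 1 listed regulator called between stroke and P4, where 10.8% of all genes were called higher and 7.94% lower. In the siRNA group Dnmt1 and Pds5b, a cohesin-associated protein, were lower than in P4 (log2 −1.48 ± 0.38, edgeR adjusted p = 0.0124; log2 −0.95 ± 0.30, edgeR adjusted p = 0.036), where 8.05% of all genes were lower and 11.6% higher. Among the 3 adult groups 0 of the 22 were called by edgeR, by DESeq2 or in the authors' deposited table. At an unadjusted p under 0.05 by edgeR, 1 was higher and 2 were lower in stroke than in adult control, near the 15.9% of all genes that passed there. In the other 2 comparisons 0 passed, where 7.37% (siRNA against stroke) and 8.36% (siRNA against adult control) of all genes did.

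A second list held 20 partners that carry signals from protocadherins inside the cell and proteases that cut them. Between P4 and adult control 2 rose and 2 fell, 20.0% of the list against 16.8% of all genes (6.32% higher and 10.4% lower). Abi2 and Wasf1 belong to the WAVE actin-regulating complex, which binds the inner part of alpha isoforms. Abi2 rose from 407 ± 137 to 1054 ± 217 CPM (log2 1.37 ± 0.31, edgeR adjusted p = 0.00655), and Wasf1 rose from 102 ± 30.1 to 295 ± 58.6 CPM (log2 1.53 ± 0.35, edgeR adjusted p = 0.00706). Cyfip1, another subunit of that complex, fell (log2 −1.12 ± 0.36, edgeR adjusted p = 0.0434), as did the kinase gene Prkca (log2 −0.95 ± 0.28, edgeR adjusted p = 0.0285).

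Fyn, a Src-family kinase that binds alpha protocadherins, was the 1 listed partner called between stroke and adult control, where 0.704% of all genes were called. It rose from 171 ± 42.9 to 919 ± 353 CPM (log2 2.42 ± 0.34, edgeR adjusted p = 0.00435), and stood at 315 ± 86.2 CPM in the siRNA group. Between the siRNA group and stroke it did not pass (log2 −1.54 ± 0.33, edgeR adjusted p = 0.379), although DESeq2 and the authors' deposited table both called it lower. Against P4, stroke had Fyn and the GTPase gene Rac1 higher (log2 1.93 ± 0.34 and 1.49 ± 0.32, edgeR adjusted p = 0.000758 and 0.00329) and Abi2 and Nlgn1, a synaptic partner of gamma isoforms, lower (log2 −1.59 ± 0.31 and −1.46 ± 0.41, edgeR adjusted p = 0.00199 and 0.0189), where 10.8% of all genes were higher and 7.94% lower. The siRNA group had 3 of the list above P4 (Rac1, Cyfip1 and Prkca) and 3 below it (Abi2, Wasf1 and Nlgn1), where 11.6% of all genes were above and 8.05% below.

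The non-clustered protocadherins, 12 single genes elsewhere in the genome, had 2 called higher and 2 lower in P4 than in adult control, where 6.32% of all genes were higher and 10.4% lower. Pcdh19, whose human form is a gene of epilepsy, rose from 53.1 ± 23.8 to 234 ± 20.1 CPM (log2 2.14 ± 0.39, edgeR adjusted p = 0.0013), and Pcdh7 rose from 246 ± 105 to 818 ± 641 CPM (log2 1.73 ± 0.47, edgeR adjusted p = 0.0202). Pcdh15, a tip-link protein of the inner ear, fell from 275 ± 128 to 88.7 ± 42.0 CPM (log2 −1.63 ± 0.44, edgeR adjusted p = 0.0177), and Pcdh9 from 676 ± 22.5 to 342 ± 39.5 CPM (log2 −0.98 ± 0.27, edgeR adjusted p = 0.021). Against P4, 4 were lower and 1 higher in stroke, where 7.94% of all genes were lower and 10.8% higher. In the siRNA group 3 were lower than in P4 and 1 higher, where 8.05% of all genes were lower and 11.6% higher. Pcdh19 stood at 51.0 ± 13.2 CPM in stroke and 37.9 ± 9.34 CPM in the siRNA group and Pcdh9 at 635 ± 173 and 885 ± 56.8 CPM, and both were called against P4 in each group. Among the 3 adult groups edgeR and the authors' deposited table called 0 of the 12. DESeq2 called 1, Pcdh18, lower in stroke than in adult control. At an unadjusted p under 0.05 by edgeR, 4 were lower in stroke than in adult control, 1 in the siRNA group than in stroke and 2 in the siRNA group than in adult control, and 0 were higher. Over all genes 15.9%, 7.37% and 8.36% passed in these comparisons, in either direction.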

How the data were processed

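Raw read counts per gene, deposited by the authors for 12 libraries in 1 table, were the values analysed. Per the labels' protocols, amplification used the Ovation RNA-seq System v2 and reads were pairs of 69 bp. Per the submitters' processing notes, CASAVA 1.8.2, edgeR and mm10 were used; for aligner and counting rule, none is given in the sources used here. The authors' deposited log2 fold changes, with their p-value and false discovery rate, served as an alternative, and the rescaled signal values that the authors deposited beside the counts were left aside. One P4 column of the table is named P3 and was matched through its number.

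Counts were filtered by group (filterByExpr), scaled with TMM factors and fitted in edgeR 4.0.16 (R 4.3.3) with 1 mean per group over all 12 libraries. The quasi-likelihood test was adjusted by Benjamini-Hochberg over 17909 genes, with calls at adjusted p under 0.05. Of the 58 members, 57 passed the filter; Pcdhb1 did not. The SE was the log2 fold change divided by the root of F. DESeq2 1.42.0 was an alternative. The scripts were tested on simulated counts. Members, gene lists and tests were chosen with earlier results of these data known. Named members were the C-type isoforms, the 3 most abundant of each other subfamily and, per comparison, the 3 called with the largest change in each direction or, with none called, the 3 with the smallest p; sets of 5 or fewer were named in full, and other members named were picked after their values were seen. From the lists, called genes were named, at most 3 per direction. Wilson intervals and limits on 0 counts cover counting error only. No sequence is shown.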

Additional observations from a re-analysis of the deposited data

How the results depend on the processing

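No log2 fold change that was checked in the alternative runs changed direction. Members given in CPM alone are not covered by this. Between P4 and adult control, the direction of Pcdha9 depended on adult control 3. It had 1.98 and 0.646 CPM in adult controls 1 and 2, below all P4 libraries, and 23.4 CPM in adult control 3, above them. Between P4 and adult control, 8 members were called, against 21 with DESeq2, 13 in the authors' deposited table, 4 with only the 2 groups fitted, 10 with relative log expression factors, 7 with no filter on low counts and 10 with the 45S class as a term (chosen after seeing the data); leaving out 1 library gave 1 to 7. Between stroke and P4 the count was 6, against 15 with DESeq2, 15 with only the 2 groups, 3 with no filter and 3 with the 45S class; leaving out 1 library gave 1 to 4. Between the siRNA group and P4 it was 3, against 18 with DESeq2, 16 with only the 2 groups, 10 in the authors' deposited table, 5 with relative log expression factors and 6 with the 45S class; leaving out 1 library gave 1 to 5. Among the adult groups the count stayed at 0 in all runs, save 1 (Pcdhga12) with DESeq2 between the siRNA group and adult control. The causes of these differences were not tested.

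Replicate numbers are shared between adult control and the siRNA group and between P4 and stroke. The sample numbers in the column names split the libraries into the same sets. Every comparison but siRNA against adult control and stroke against P4 crosses the sets, so there the group and the set cannot be told apart. Deviations of same-numbered libraries correlated at 0.0642, −0.191 and −0.336, and at 0.160, 0.0136 and 0.153, so the numbers were not taken as a pairing. With the replicate block, 0 and 17 members were called.

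Relative log expression factors moved the median of all genes by −0.105 between stroke and adult control and by −0.128 between stroke and P4, and the 45S class by 0.117 and 0.136. Members minus all genes, stroke against adult control, stayed at 0.41 and 0.43 with either set of factors and was 0.21 with the 45S class. Depth sets the limit for a count of 0, which is 0.342 CPM for adult control 3 and 0.0562 CPM for P4 4.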
